A study of Mus musculus with 3 samples.

Results

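The genes that carry the LPS signal at TLR4, namely its co-receptors, the adapters and the IRAK kinases, were examined in LPS-treated RAW macrophages, a mouse macrophage line. Members were the gene probes whose gene name on the array was *Cd14*, *Ly96*, *Lbp*, *Myd88*, *Tirap*, *Ticam1*, *Ticam2*, *Irak1*, *Irak2* or *Irak4*. These are 10 of 26840 genes with a symbol, and 18 of 56605 gene probes. RNA was hybridised in 1 colour (Cy3) to SurePrint G3 Mouse GE arrays of 60-base probes, with 1 array for each of 3 conditions. Cells of the LPS array received LPS at 50 ng/mL, and cells of the other arrays received *L. rhamnosus* CRL1505 or *L. plantarum* CRL1506 at 50000000 cells/mL for 24 h, were washed, and then received the same LPS (CRL1505 + LPS and CRL1506 + LPS). All conditions therefore share the LPS, which was given for 12 h according to the series design and for 3 h according to the sample descriptions. Arrays of non-stimulated macrophages were not analysed here, so that the response to LPS itself was not measured.

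LPS is handed by the serum protein LBP to CD14, and by CD14 to the complex of MD-2 (*Ly96*) and TLR4 on the macrophage surface. The sorting adapter TIRAP then brings in MyD88, on which IRAK4 and the kinases IRAK1 and IRAK2 assemble, leading to TRAF6, NF-kB and inflammatory cytokines. After the receptor is taken up, TRAM (*Ticam2*) brings in TRIF (*Ticam1*), which leads to TBK1, IRF3 and type I interferon.

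Several of these genes have probes that did not move together, and a stretch of 30 bases is shown here for some of them and for the probe of *Myd88*, read from the array files 5′ to 3′. Capitals mark bases within runs of 12 bases that also occur in probes of at least 50 other genes. The probe positions are those of the array design on mm9.
Ly96, probe A_55_P2506380, bases 21 to 50: CACACACACACACACACACACACACACACA
Ly96, probe A_66_P137323, bases 18 to 47: catattgactgaatctgagaagcaacagtg
Irak2, probe A_55_P2729613, bases 10 to 39: ctacagtttctatatccagttccaagccag
Irak2, probe A_55_P2082974, bases 31 to 60: tactctacaaagaagagagactggacagca
Irak4, probe A_55_P2728951, bases 9 to 38: attatcagggtttccattccaggaattcct
Irak4, probe A_55_P2852406, bases 1 to 30: cccccttgctgtatattgattgtactgctc
Myd88, probe A_52_P282762, bases 1 to 30: ggtttgcatcttcttattcctttcacgttc

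The Ly96 probe A_55_P2506380 (chr1:16699612-16699671, plus strand) is a CA repeat along the stretch shown, while A_66_P137323 (chr1:16678610-16678669, plus strand) holds no such run. The *Irak2* probe A_55_P2729613 (chr6:113618349-113618408, plus strand) and the *Irak4* probe A_55_P2728951 (chr15:94387325-94387384, plus strand) list no RefSeq transcript in the array files. The *Irak2* probe A_55_P2082974 (chr6:113643695-113643754, plus strand), the *Irak4* probe A_55_P2852406 (chr15:94398405-94398463) and the *Myd88* probe A_52_P282762 (chr9:119245322-119245381, minus strand) list one.

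The level of a probe is given below as its log2 intensity minus that of the 75th percentile of its array, so that a level of 0 is the signal at that percentile. A log2 ratio is the difference of the levels of 1 probe on a pair of arrays, and 2-fold, the threshold stated by the study, is a log2 ratio of 1. Levels of different probes were not compared. Since each condition has 1 array, nothing here has a replicate check, and p-values are not given. For comparison, the median SD of the log2 ratio was 0.05 or less over repeated spots of a probe, which covers error within an array. Between the probes of a gene it was 0.23 for CRL1505 against LPS, 0.21 for CRL1506 against LPS and 0.32 between the strains. This spread comes from the same arrays and leaves out error between cultures, arrays and scalings, so that a ratio beyond it is not thereby established. LPS and CRL1506 + LPS were hybridised on 1 slide and scanned together. CRL1505 + LPS was hybridised on a different slide and scanned apart from them, so that strain and slide cannot be told apart in any of its values. The share of gene spots well above background was between 48.5% and 55.3%, and the signal at the 75th percentile was between 517.0 and 743.1. All 10 macrophage markers, among them the member *Cd14*, were well above background on each array. The sum of their levels on the linear scale was between 664.2 and 826.2 times the 75th percentile signal. Single macrophage markers moved within that sum, since with CRL1505 *Adgre1* and *Fcgr1* were 4.83-fold and 5.28-fold higher than with LPS alone and *Csf1r* was 2.77-fold lower. The summed level of the 4 fibroblast markers was 0.12 in LPS, 0.24 in CRL1505 + LPS and 0.42 in CRL1506 + LPS, and 0, 1 and 3 of them were well above background. Of the 4 neutrophil markers 2 were well above background in LPS, 4 in CRL1505 + LPS and 2 in CRL1506 + LPS, and their summed level was between 2.09 and 3.01, in LPS without *Ly6g*, whose spot was left out there as an outlier. With CRL1505 *S100a9* was at least 9.04-fold higher than with LPS alone and *S100a8* 2.48-fold lower. The part of these other markers in the results was not tested. Of the 4 T cell markers 3 were well above background on each array, with a summed level between 2.68 and 2.92, and of the 4 epithelial markers 1 was in LPS, 0 in CRL1505 + LPS and 1 in CRL1506 + LPS, with sums between 0.07 and 0.31. In RNA of whole cultures, fewer cells with a transcript and less of it per cell cannot be told apart.

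**Figure D1:**
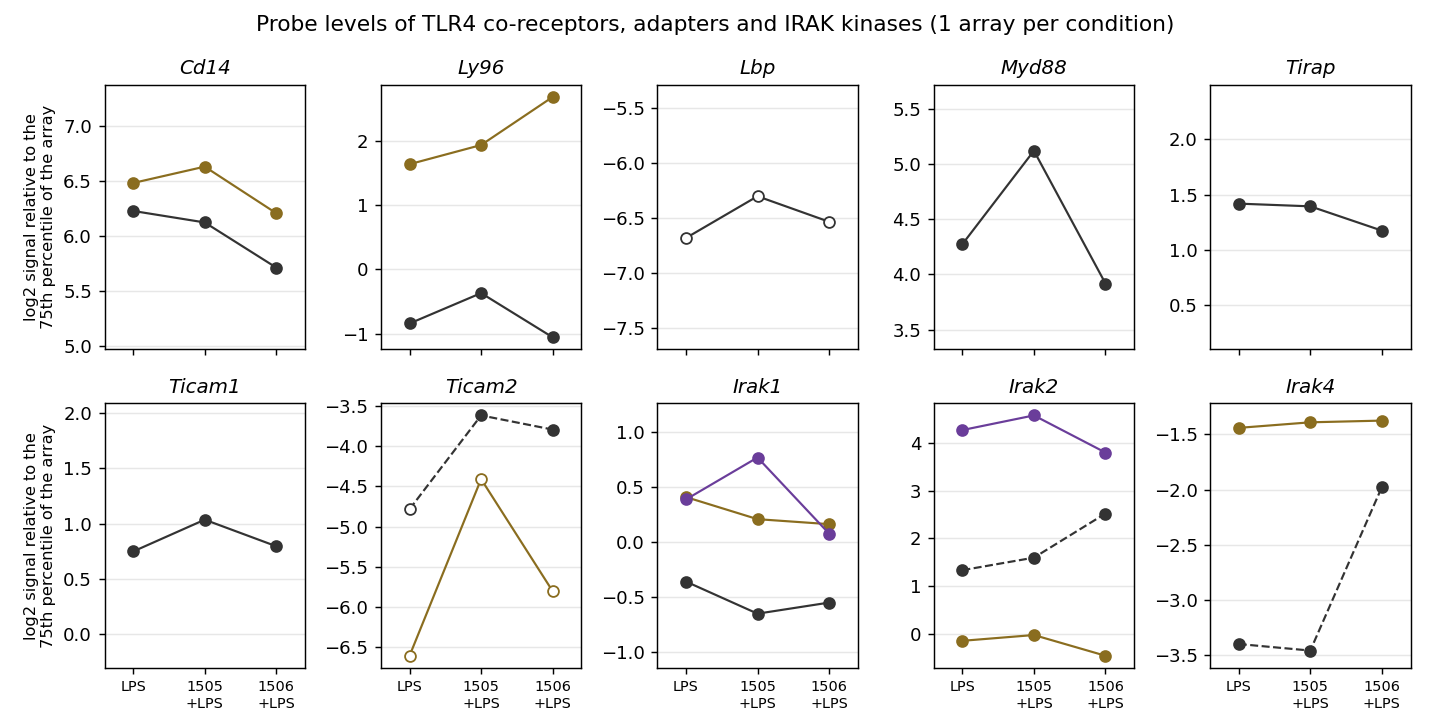
Levels of all 18 probes on the 3 arrays, as log2 signal relative to the 75th percentile of the array. Each line is a probe, dashed where the probe lists no RefSeq transcript, open circles are spots not well above background, and the upper *Ly96* line is the CA-repeat probe. *Myd88* peaks in CRL1505 + LPS at 5.12, and the dashed *Irak2* and *Irak4* lines are highest in CRL1506 + LPS at 2.52 and -1.98.

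Of the co-receptors, *Cd14* had 2 probes, both bright. The brighter probe stood at 6.48 in LPS, 6.63 in CRL1505 + LPS and 6.21 in CRL1506 + LPS. The other stood at 6.23, 6.12 and 5.71, respectively. With both probes the CRL1506 + LPS array was the lowest of the 3, with log2 ratios to LPS of -0.27 and -0.51, and neither reached 2-fold. For CRL1505 the probes went opposite ways (0.15 and -0.10), each smaller than the spread among a gene's probes given above, and no order of CRL1505 + LPS and LPS can be read from them. The brighter probe lay on the LPS array among spots with uneven pixel signal, 5 of its 20 nearest spots, although its own spot was even. Between the strains the probes went the same way, with *Cd14* higher in CRL1505 + LPS by 0.42 and 0.41 on the log2 scale. Over 8 other normalizations these differences ran from 0.02 to 0.92 and from 0.01 to 0.91, respectively, so that their size depends on the scaling.

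*Ly96* encodes MD-2, the part of the receptor complex that binds lipid A. Its CA-repeat probe, the brighter of 2, stood at 1.64 in LPS, 1.93 in CRL1505 + LPS and 2.68 in CRL1506 + LPS. With CRL1506 it was 2.07-fold higher than with LPS alone (log2 ratio 1.05) and with CRL1505 1.23-fold higher (0.30). The other probe stood at -0.84, -0.37 and -1.06, which put it 1.16-fold lower in CRL1506 + LPS (-0.21) and 1.39-fold higher in CRL1505 + LPS (0.47). The arrays therefore took opposite orders with the probes, CRL1506 + LPS being the highest with the repeat and the lowest without it. Between the strains the log2 ratio was -0.75 with the repeat probe and 0.69 with the other.

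Other probes with the repeat were set beside this value. Of the probes on the array, 29 held the unit CA at least 10 times in a row as spotted (the opposite strand was not searched), 1 of them that of *Ly96*. The 28 others were well above background on the compared arrays. In CRL1506 + LPS against LPS their median log2 ratio was 0.93, 6 of the 28 (21.4%) had risen at least 2-fold and 0 had fallen as far, against a median of -0.03 and 7.06% at least 2-fold higher over all gene probes measured. In CRL1505 + LPS against LPS their median was 0.14 and 0 of the 28 were at least 2-fold apart, against 0.05 and 7.40% higher over all gene probes. In both comparisons the repeat probe of *Ly96* lay within the range of these probes, above their median. How far its signal comes from *Ly96* transcripts was not tested.

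*Lbp*, the serum protein that carries LPS, was represented by 1 probe (A_51_P454008), whose signal did not rise well above background on the 3 arrays. No ratio is given for it.

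*Myd88*, the adapter used by TLR4 and most other Toll-like receptors, had the widest range among the adapters measured on all arrays. Its single probe had a deposited intensity of 14382 in LPS, 18018 in CRL1505 + LPS and 10551 in CRL1506 + LPS. After scaling to the 75th percentile the levels were 4.27, 5.12 and 3.92, respectively. CRL1505 + LPS was the highest and CRL1506 + LPS the lowest. With CRL1505 *Myd88* was 1.80-fold higher than with LPS alone (log2 ratio 0.85), and with CRL1506 it was 1.28-fold lower (-0.36), neither of which reached 2-fold. Between the strains it was 2.31-fold higher in CRL1505 + LPS (1.21), the only member at least 2-fold apart there. Of all genes compared between the strains, 16.5% were at least 2-fold apart, 9.01% higher in CRL1505 + LPS and 7.46% lower. The strain comparison is also a comparison between slides. Under 8 other ways of normalizing the arrays the log2 ratio between the strains ran from 0.81 to 1.70, kept its sign in 8 and reached 2-fold in 4.

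*Tirap*, which recruits MyD88 to TLR4 at the membrane, stood at 1.42 in LPS, 1.39 in CRL1505 + LPS and 1.17 in CRL1506 + LPS. Its log2 ratios to LPS were -0.02 and -0.24, so that LPS and CRL1505 + LPS differed by less than the spread among a gene's probes. *Ticam1*, which encodes TRIF, stood at 0.75, 1.04 and 0.79, with ratios of 0.29 for CRL1505 and 0.05 for CRL1506. CRL1505 + LPS was the highest, but its excess over CRL1506 + LPS (0.24) was within the spread among a gene's probes, and LPS and CRL1506 + LPS could not be ordered either. After a shift by the spike-in probes *Ticam1* in CRL1505 + LPS was below LPS (-0.22) and below CRL1506 + LPS (-0.16).

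*Ticam2*, the bridging adapter TRAM, was close to the detection limit. Its probe A_55_P2719634, which lists no RefSeq transcript, stood at -3.62 in CRL1505 + LPS and -3.79 in CRL1506 + LPS, and was not well above background in LPS at -4.78. Set against the lowest signal well above background on the LPS array, it was at least 1.82-fold higher with CRL1505 (log2 ratio at least 0.86) and at least 1.61-fold higher with CRL1506 (at least 0.69), both bounds under 2-fold. Its other probe, A_51_P166266, which lists a RefSeq transcript, did not reach that limit on the 3 arrays. The direction of *Ticam2* thus rests on 1 dim probe.

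Among the kinases, *Irak4*, which starts the kinase relay on MyD88, hardly differed between the arrays with its RefSeq probe. That probe stood at -1.44 in LPS, -1.39 in CRL1505 + LPS and -1.37 in CRL1506 + LPS, and all its ratios were 0.07 or less in size. The probe without a RefSeq transcript stood at -3.40, -3.46 and -1.98, and was 2.68-fold higher with CRL1506 than with LPS alone (log2 ratio 1.42), against -0.06 for CRL1505. Of the *Irak4* probes, this one lies closer to the start of the gene.

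*Irak1*, the kinase that is modified and degraded once the receptor fires, had 3 probes on chromosome X that list RefSeq transcripts. For CRL1506 against LPS they ran together, with log2 ratios of -0.19, -0.25 and -0.31. For CRL1505 they did not. The probe A_55_P2099080, the brightest on average over the arrays, stood at 0.39 for LPS and 0.77 for CRL1505 + LPS (0.38). The probe A_55_P2153862 stood at 0.41 and 0.21 (-0.20), and A_52_P149835 at -0.36 and -0.65 (-0.29). In CRL1505 + LPS 1 probe of *Irak1* was thus higher and the other two were lower, and their mean ratio was -0.04.

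*Irak2*, the kinase that sustains the late response to TLR ligands, also had 3 probes. The brightest, A_55_P2082979, stood at 4.26 in LPS, 4.57 in CRL1505 + LPS and 3.79 in CRL1506 + LPS, with log2 ratios of 0.31 and -0.47. It shares 16 bases in a row with 2 other probes, whose median ratios to LPS were 0.34 for CRL1505 and -0.22 for CRL1506, and the part of this in its signal was not tested. The second RefSeq probe, A_55_P2082974, stood at -0.14, -0.02 and -0.45, with ratios of 0.12 and -0.31. Both put CRL1506 + LPS lowest, as the probe of *Myd88* did. Both also had CRL1505 + LPS highest, but the 0.12 of the second was within the spread among a gene's probes. After a shift by the spike-in probes both were below LPS in CRL1505 + LPS (-0.20 and -0.39), unlike *Myd88* (0.34). The probe without a RefSeq transcript stood at 1.34, 1.60 and 2.52, and went the other way in CRL1506 + LPS, where it was 2.27-fold higher than in LPS (1.18). Between the strains the log2 ratio of *Irak2* was 0.78 and 0.43 with the RefSeq probes and -0.92 with the other.

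**Figure D2:**
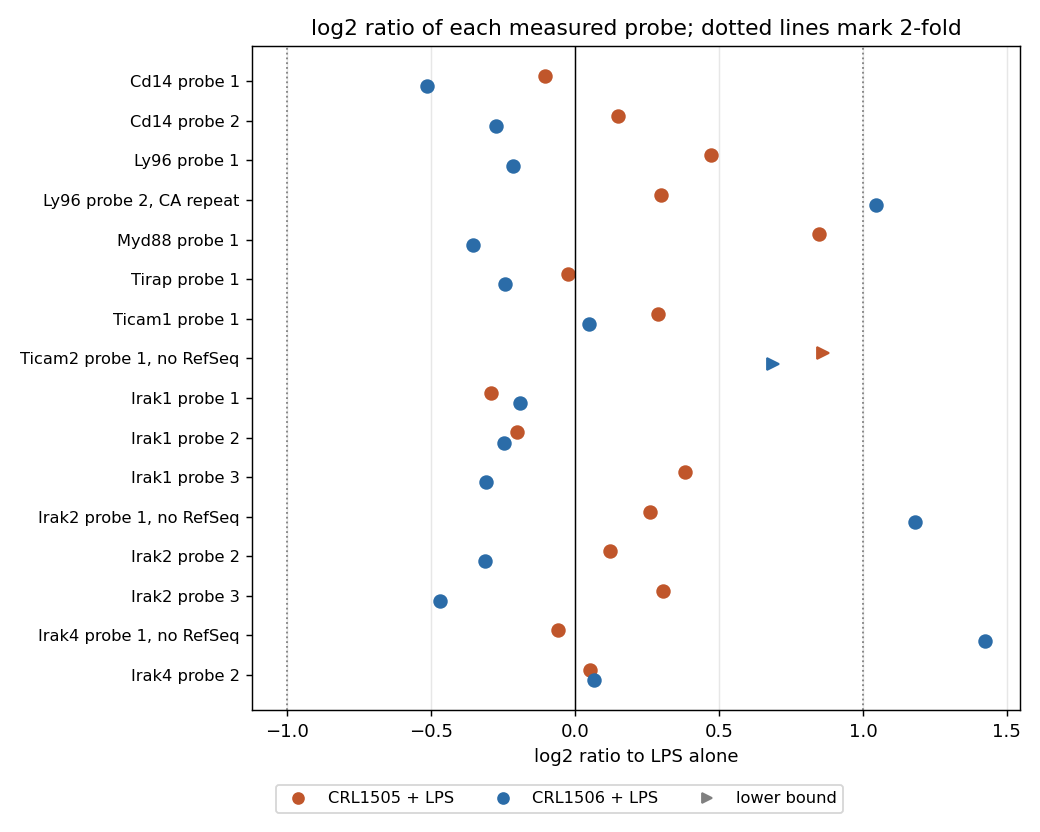
log2 ratio of each measured probe in CRL1505 + LPS and in CRL1506 + LPS to LPS alone. Probes of a gene are numbered from the start of the gene towards its end, triangles are lower bounds, and dotted lines mark 2-fold. In CRL1506 + LPS the points past 2-fold are the repeat probe of *Ly96* at 1.05 and the probes of *Irak2* and *Irak4* without a RefSeq transcript at 1.18 and 1.42.

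The *Irak2* and *Irak4* probes without a RefSeq transcript belong to a class of probes that was often higher in CRL1506 + LPS. Of 7333 such gene probes measured in CRL1506 + LPS and LPS, 18.3% were higher by at least 2-fold and 1.7% were lower, against 2.96% and 1.75% of 20121 probes that list a RefSeq transcript. Among probes of genes with a symbol, as these probes are, it was 27.5% of 3435 against 2.93% of 20038. In CRL1505 + LPS against LPS the shares were 8.5% higher and 3.61% lower of 6127 probes without a RefSeq transcript, and 7.04% and 6.53% of 18490 with one. The share in CRL1506 + LPS moved with base composition. It was 28.7% below 40% GC, where the *Irak4* probe lies with 36.7%, and 17.2% from 45% to 50% GC, where the *Irak2* probe lies. Among 2157 genes with both kinds of probe measured, the probe without a RefSeq transcript exceeded the other in its log2 ratio to LPS by a median of 0.46 in CRL1506 + LPS, and by at least 1 in 27.8% of genes. The excess was 1.57 for *Irak2* and 1.36 for *Irak4*, above the 75th percentile of these genes (1.07) and around the 90th (1.54). In CRL1505 + LPS the median excess over 1790 genes was 0.01, and it was 0.05 for *Irak2* and -0.11 for *Irak4*. What these probes detect was not tested.

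**Figure D3:**
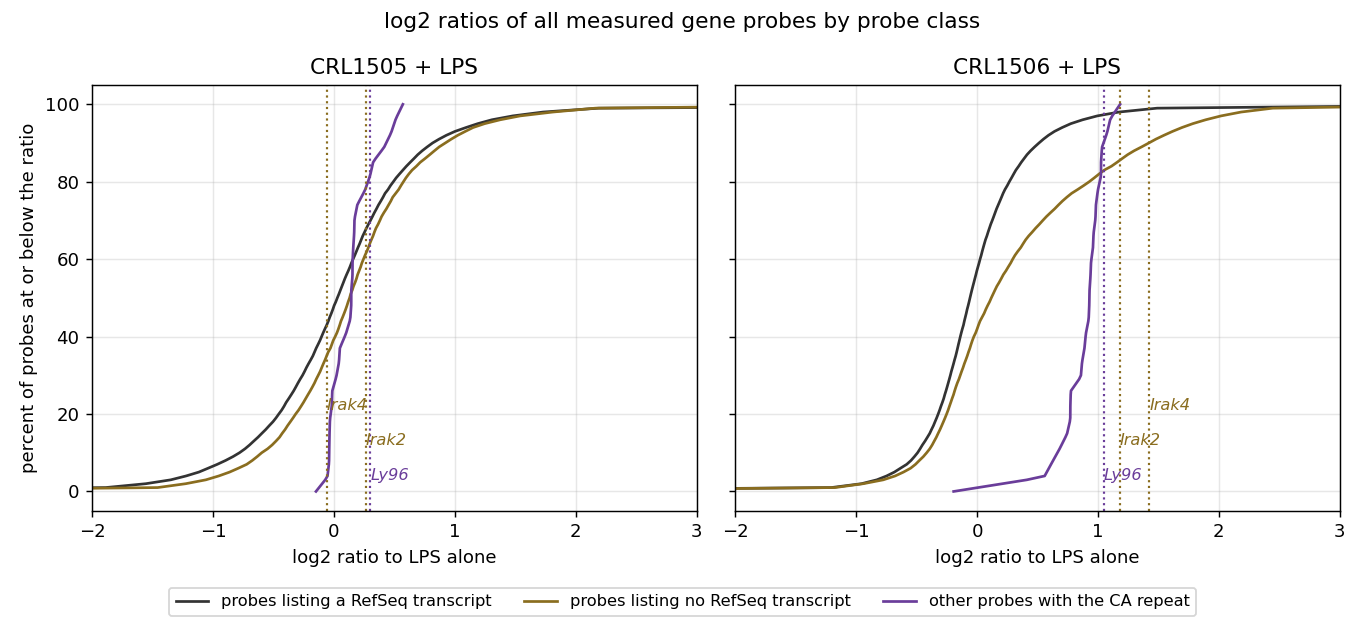
Percent of gene probes at or below each log2 ratio to LPS, for CRL1505 + LPS (left) and CRL1506 + LPS (right), by probe class. Dotted lines mark the repeat probe of *Ly96* and the *Irak2* and *Irak4* probes without a RefSeq transcript. In CRL1506 + LPS the curve of the 28 other CA-repeat probes is steep around its median of 0.93, and that of probes without a RefSeq transcript lies to the right of that of RefSeq probes. In CRL1505 + LPS the medians lie close together, at 0.14 for CA-repeat probes, 0.13 for probes without a RefSeq transcript and 0.03 for those with one. The CA-repeat curve is steeper than the others there too.

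Taking for each gene its brightest probe, 9 of the 10 members could be compared. In CRL1505 + LPS against LPS 0 of 9 were at least 2-fold apart, against 18.3% of 15609 genes compared (9.92% higher and 8.41% lower). Of the 9, 8 were above 0 and 1 below, beside 7910 above and 7699 below of all genes. The members' median log2 ratio was 0.30 against 0.01 over all genes. *Irak1* is above 0 only by its chosen probe, which was the brightest on the CRL1505 + LPS array alone, and its other probes were below 0. *Ticam2* is a bound, which could only lie above 0 or be left out. In CRL1506 + LPS against LPS 1 of 9, the repeat probe of *Ly96*, was at least 2-fold higher and 0 lower, against 9.19% at least 2-fold apart of 16284 genes compared (5.67% higher and 3.52% lower). Here 4 members were above 0, with the *Ticam2* bound among them, and 5 below, beside 6955 above and 9329 below of all genes. The members' median was -0.24 against -0.06 over all genes. Both comparisons share the LPS array. Between the strains 7 members were higher in CRL1505 + LPS and 2 in CRL1506 + LPS, beside 8152 and 7633 of all genes. The members' median was 0.24 against 0.03 over all genes. The measured RefSeq probes of members without the CA repeat were 12 probes of 8 genes. Restriction to RefSeq probes was chosen after the data were seen. The set leaves out the member probes at least 2-fold higher in CRL1506 + LPS, so that its splits partly follow from the choice. In CRL1505 + LPS against LPS 8 of the 12 were above 0 and 4 below (median 0.13). In CRL1506 + LPS against LPS 2 were above and 10 below (median -0.26). Of all measured RefSeq probes, about 48% and 57% lay below 0, respectively. Between the strains 10 of the 12 were higher in CRL1505 + LPS and 2 were lower (median 0.42), the 2 being of *Irak1* (-0.10) and *Irak4* (-0.02). The median over RefSeq probes of genes with a symbol was 0.07. After a shift by the spike-in probes the strain ratios of *Tirap* (-0.18), *Ticam1* (-0.16) and another *Irak1* probe (-0.35) also lay below 0.

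The scaling of the arrays moved these signs. The median log2 ratio of 13125 genes well above background on all arrays was 0.06 for CRL1505 and -0.07 for CRL1506 as reported, 0.35 and -0.27 after a shift by the medians, and -0.45 and -0.18 after a shift by the spike-in probes. With the spike-in shift the CRL1505 ratios of *Cd14*, *Ly96*, *Ticam1*, *Irak1*, *Irak2* and *Irak4* were below 0, while those of *Myd88* (0.34) and *Ticam2* (at least 0.36) stayed above. Values relative to the median of all genes do not move, by construction, with a scaling that shifts whole arrays. *Myd88* lay 0.79 above that median in CRL1505 + LPS, and from 0.62 to 0.84 above it under 8 other normalizations. In CRL1506 + LPS it lay at -0.28 relative to the median, and between -0.28 and -0.18 under the others. The brightest *Irak2* probe lay 0.25 above in CRL1505 + LPS (0.12 to 0.25) and at -0.40 in CRL1506 + LPS (-0.44 to -0.30).

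**Figure D4:**
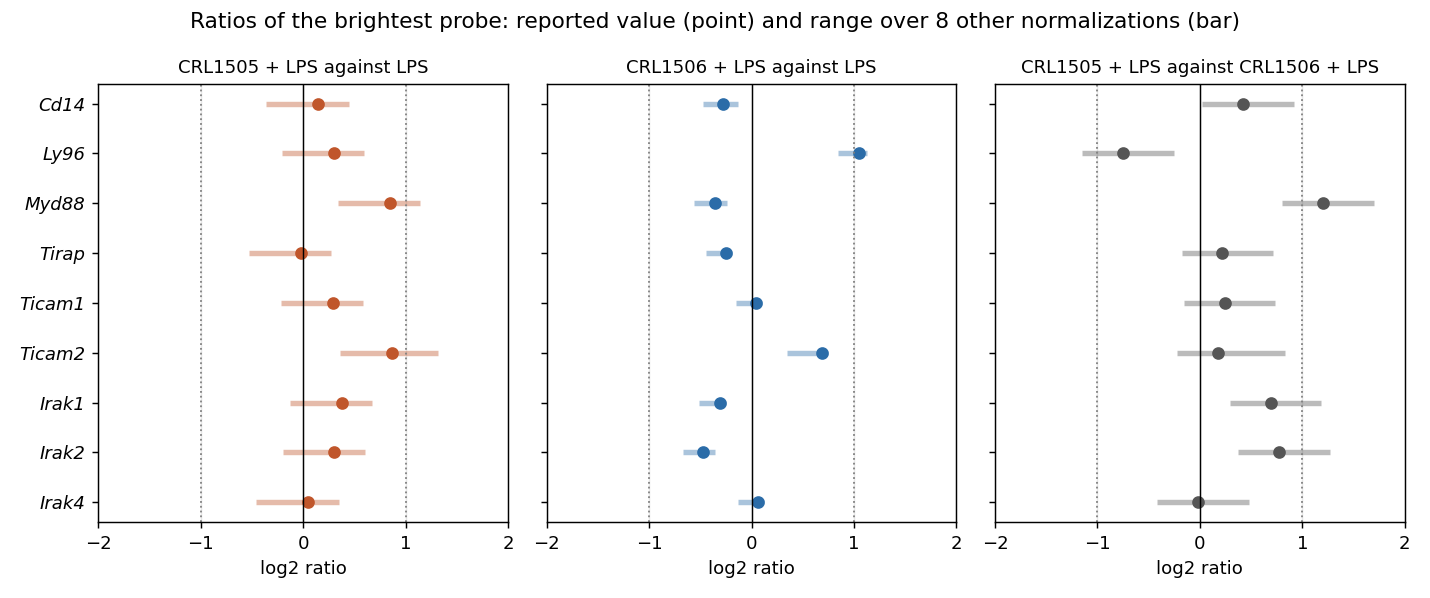
log2 ratio of the brightest probe of each member in the 3 comparisons. Points are the values as reported, bars span 8 other normalizations, dotted lines mark 2-fold, and *Ticam2* is a lower bound against LPS. The bars of *Myd88* lie above 0 for CRL1505 and below 0 for CRL1506, and those of 7 other members cross 0 for CRL1505.

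To see whether other genes shared these values, the 5 genes nearest in their pair of log2 ratios to LPS were searched for over the 13125 genes that all arrays measured. For *Myd88* these were *Samsn1* (0.86 and -0.36), *Cxcl2* (0.82 and -0.37), *Tmod4*, *Tarm1* and *Errfi1*. *Cxcl2* encodes a neutrophil chemokine and *Errfi1* an inhibitor of EGF receptor signaling. Within a distance of 0.25 on the log2 scale lay 228 genes. For the repeat probe of *Ly96* the nearest were *Oacyl*, *Slc38a9*, *2310043M15Rik*, *Car1* and *Tbce*, with 110 genes within that distance. For *Irak2* they were *Zfp217*, *Tlnrd1*, *Trp73*, *Edem3* and *Arid2*, with 596. These neighbours rest on 3 arrays and were not tested.

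The other genes of the pathway were taken as a list of 40, from accessory proteins to inhibitors, of which 38 could be compared with LPS for each strain. In CRL1505 + LPS 3 were at least 2-fold higher and 1 lower, a smaller share than the 18.3% of all genes, and the median was 0.37 against 0.01 over all genes. The split moved with the scaling, to 6 higher and 0 lower after the median shift and to 1 higher and 4 lower after the spike-in shift. In CRL1506 + LPS 1 was higher and 0 lower (9.19% of all genes were apart). Of the 38, 29 were below 0, beside 9329 of 16284 genes, and the list's median was -0.15 against -0.06. Between the strains 37 could be compared, of which 5 were at least 2-fold higher in CRL1505 + LPS and 1 lower (16.5% of all genes were apart), with a median of 0.41 against 0.03. After the spike-in shift 0 were higher and 3 lower.

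The largest rise in the list with CRL1505 was that of *Irak3*, which encodes the inhibitory kinase IRAK-M, a brake on the active IRAKs. Its brightest probe stood at 1.66 in LPS, 3.34 in CRL1505 + LPS and 2.42 in CRL1506 + LPS. The log2 ratio to LPS was 1.68 for CRL1505 and 0.75 for CRL1506, and its probes ran from 1.18 to 1.68 and from 0.74 to 1.31, all higher than in LPS. The other members of the IRAK family reached 0.38 or less in CRL1505 + LPS with any probe. *Sigirr*, an inhibitory receptor of the IL-1 receptor family, stood at -0.62, -1.72 and -0.83 and was the list's gene at least 2-fold lower in CRL1505 + LPS (-1.11).

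On the TRIF branch, *Tbk1*, the kinase that activates IRF3, stood at -0.14 in LPS, 0.93 in CRL1505 + LPS and -0.32 in CRL1506 + LPS (1.07 and -0.17). *Azi2*, an adapter of TBK1, stood at -0.41, 1.02 and -0.19 (1.43 and 0.22), and its probes ran from 0.80 to 1.44 for CRL1505. Both reached 2-fold for CRL1505 as reported, while the ratio of *Ticam1* was 0.29. After the spike-in shift neither *Tbk1* nor *Azi2* reached 2-fold against LPS. *Tbk1*, which had 1 probe, also fell short with normexp, the deposited table and the percentile taken over probes detected on all arrays. Of the 7 listed genes of this branch, 5 were above 0 for CRL1505 and 2 below. Those below were *Irf3* and *Traf3*, whose probes ran from -0.85 to -0.59. *Irf3* itself stood at 3.67, 3.45 and 3.52 and did not reach 2-fold.

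Between the strains, the genes at least 2-fold higher in CRL1505 + LPS were *Tbk1* (1.25), *Azi2* (1.21), *Irf5* (1.21), *Peli1* (1.16) and *Nfkb1* (1.10). *Peli1* encodes a ubiquitin ligase that modifies IRAKs, *Irf5* a transcription factor activated through MyD88, and *Nfkb1* an NF-kB subunit. The brightest *Peli1* probe stood at 5.36, 6.11 and 4.95 and took the same order of arrays as *Myd88*, while its other probe had 0.07 in CRL1506 + LPS against LPS. The *Nfkb1* value came from a probe without a RefSeq transcript, and its probes ran from -1.17 to 1.10. As for *Myd88*, these are values between slides, and after the spike-in shift none of the 5 reached 2-fold.

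*Cd180*, a TLR4 homologue without a signaling domain, was the list's gene at least 2-fold higher in CRL1506 + LPS. Its brightest probe, which lists no RefSeq transcript, stood at -0.05 in LPS, 0.55 in CRL1505 + LPS and 2.17 in CRL1506 + LPS, a log2 ratio of 2.22. All its measured probes were higher in CRL1506 + LPS than in LPS, from 0.60 to 2.22, but with each gene taken by its brightest RefSeq probe, 0 of the list reached 2-fold. *Tlr4* stood at 2.32, 2.26 and 1.49 with its brightest probe, also one without a RefSeq transcript, a ratio of -0.06 for CRL1505 and -0.83 for CRL1506. Its probes ran from -0.83 to 0.48 for CRL1506, so that no direction can be given. Over the list, 5 of 9 probes without a RefSeq transcript were at least 2-fold higher in CRL1506 + LPS, against 1 of 65 with one, a probe of *Irak3* (1.31), beside the 27.5% and 2.93% over genes with a symbol. The same counts were 2 of 2 and 1 of 13 for the members, the 1 being the repeat probe of *Ly96*.

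**Figure D5:**
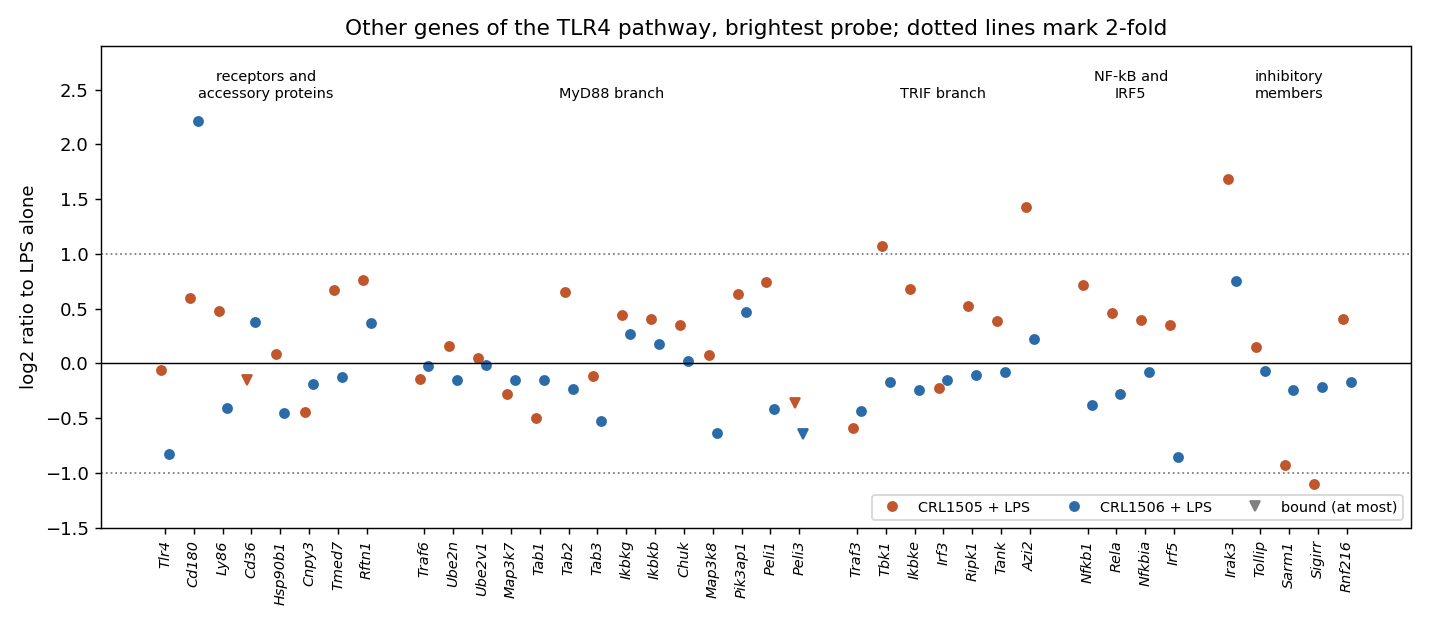
log2 ratio to LPS of other genes of the TLR4 pathway, by the brightest probe and grouped by role. Dotted lines mark 2-fold and downward triangles mark bounds. *Irak3*, *Azi2* and *Tbk1* lie above the upper line in CRL1505 + LPS and *Sigirr* below the lower, and *Cd180* lies above the upper line in CRL1506 + LPS.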

How the data were processed

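RNA of RAW macrophages was measured on 3 arrays, 1 for each condition. The authors deposited the output of Feature Extraction (version 12.0.3.1 in the files, while the paper's text gives another), whose processed intensity has background subtracted and spatial trends removed but is not normalized between arrays. A table of log2 values, which the authors had normalized between arrays, was deposited as well and served as an alternative. In it the median of the gene spots was 6.86 on each array.

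For the values reported, log2 intensity was shifted by each array's 75th percentile over 59305 gene spots. Spots marked as outliers (467, 241 and 274 on the LPS, CRL1505 + LPS and CRL1506 + LPS arrays) were left out with any ratio that needs them, none of them of a member, and repeated spots were averaged. A gene was represented by its brightest probe over the arrays. A ratio with 1 side not well above background was treated as a lower bound, against the lowest signal well above background on that array or the probe's own, whichever was higher. Ratios with both sides below were left out, as was a bound whose sign ran against the side well above background. The sign of a bound was therefore fixed by which array was well above background. Members were all named, with every probe, and of the pathway list the genes at least 2-fold apart in any comparison and *Tlr4*. *Irf3*, *Traf3*, *Sarm1* and the single cell type markers were named after their values were seen. Nearest genes were found by Euclidean distance for the 3 members with the widest range. The members and lists were chosen with earlier results of these data known.

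No test was run, since the t-test of the paper's methods requires replicates, and the number of arrays limits the precision. Slide could not be a block, since the CRL1505 + LPS array was alone on its slide. Alternatives were other scalings, background correction, filters, probe rules and thresholds, and, chosen after seeing the data, removal of the trend on probe GC content over 12 bins and restriction to RefSeq probes. The software was R 4.3.3 with limma 3.58.1 and Python 3.11.15 with NumPy 2.4.6 and pandas 2.3.3. The procedure was tested on simulated data. A further marker list and the stretches of other probes are not reported here.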

Additional observations from a re-analysis of the deposited data

Results flagged for a closer look

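The probe of *Irak2* that lists no RefSeq transcript, which was not used for the value of the gene, stood 1.18 higher on the log2 scale with CRL1506 than with LPS alone, and that of *Irak4* 1.42 higher. Both are signals in probes outside the main values, at least 2-fold above the LPS array, and over 8 other normalizations they ran from 0.98 to 1.26 and from 0.84 to 1.48. *Myd88* was higher than in LPS with CRL1505 and lower with CRL1506, a difference of 1.21 between the strains. With 1 array per condition this difference was not tested.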

How the results depend on the processing

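No member called at least 2-fold apart changed sign under any alternative. The alternatives other than the mean over probes kept the reported probe where they could, so that probes of opposite sign did not enter. The other probe of *Ly96* was at -0.21 in CRL1506 + LPS against LPS. Of 372 single-gene values under alternatives 314 moved by less than the SD among a gene's probes and 58 by more. Many could not move, as when outlier spots were kept, of which no member had any. The median and spike-in shifts moved every measured member by more than that SD in CRL1505 + LPS against LPS. Of the members in CRL1505 + LPS against LPS, none were at least 2-fold apart as reported, but 2 after the median shift (*Myd88* and *Ticam2*) and at a 1.5-fold threshold, and 1 (*Ticam2*) after quantile normalization, after cyclic loess and without a filter on dim probes. In CRL1506 + LPS against LPS the 1 member was lost (0) with the median shift, the spike-in scaling, normexp, the mean over probes (where *Ly96* was at 0.42) and a 4-fold threshold, and there were 2 at 1.5-fold. Between the strains the 1 member became 3 with the median shift, 4 at 1.5-fold, and 0 with quantile normalization, cyclic loess, the deposited table and a 4-fold threshold. With the spike-in scaling it was *Ly96* (-1.15) in place of *Myd88* (0.81). Of the pathway list, the 4 genes for CRL1505 against LPS became 2 with normexp and the deposited table, 14 at 1.5-fold and 0 at 4-fold. The 1 gene for CRL1506 against LPS became 3 with the median shift, 2 without a filter and with the mean over probes, 6 at 1.5-fold and 0 with RefSeq probes only. The 6 genes between the strains became 17 with the median shift and at 1.5-fold, 3 with quantile normalization, the mean over probes and the spike-in scaling, and 0 at 4-fold. With the spike-in scaling these were *Cd180*, *Sarm1* and *Sigirr*, 0 higher and 3 lower. The causes were not tested. Without uneven spots *Cd14* took its other probe (-0.10 and -0.51). No paired analysis was possible because each condition has 1 array, and leaving out an array leaves no comparison. *Lbp* and *Ticam2* are limited by signal over background.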
